A study of Mus musculus with 84 samples.

Results

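The nuclear receptors examined here were 42 genes of the mouse nuclear receptor family, of 21851 protein-coding genes with an annotated start site, taken by name as the family without Pparg, Nr1d1 and Nr1d2. They comprised 5 steroid receptors, 6 receptors for thyroid hormone, retinoic acid and vitamin D, 3 retinoid X receptors, 7 sensors of lipids, bile acids and xenobiotics, 3 oestrogen-related receptors, 2 retinoid-related orphan receptors, 2 members of the hepatocyte nuclear factor 4 group, 7 orphan receptors of the NR2 branch, 3 immediate-early receptors of the NR4A branch and 4 receptors of the NR5A, NR6A and NR0B branches. All 42 were found in the annotation and all are accounted for below. The rule uses no measured value.

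Nuclear receptors are transcription factors that bind DNA through a pair of zinc fingers and, in most members, are switched by a small lipophilic ligand such as a steroid, a thyroid hormone, a retinoid, a fatty acid or an oxysterol. Many bind as heterodimers with a retinoid X receptor to repeats of the core motif AGGTCA, and recruit coactivators or corepressors that write or remove histone marks. In adipocytes they are known for relaying hormonal and nutrient signals to genes of lipid storage, lipolysis and oxidation. Of the 4 histone modifications measured, H3K4me3 lies at active or poised promoters, H3K27me3 marks repression by Polycomb, H3K27ac marks active promoters and enhancers, and H3K4me1 marks enhancers and the flanks of promoters.

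The marks were profiled by CUT&Tag, in which a transposase tethered to an antibody cuts tagged DNA out of nuclei, in adipocyte nuclei from the epididymal fat of male AdipoERCre x NuTRAP mice. In this line a tamoxifen-inducible Cre under the adiponectin promoter switches on a biotinylated nuclear tag in adipocytes, so that the nuclei can be pulled down. The control and the diet mice carried the same alleles and all received tamoxifen before the diets began. Mice on chow were killed at 18 weeks of age (C), 26 weeks (CC_s), 31 weeks (CC_l) or 39 weeks (CCC). By the study's methods their chow was a low-fat diet, and CC_s and CCC were later switched to standard chow alongside the weight-loss mice. The control groups thus differed in diet as well as in age. Obese mice had 12 weeks (H) or 25 weeks (HH) of high-fat diet (HFD). They were killed at 18 weeks (H) or 31 weeks (HH) of age and were compared with C and CC_l, of the same ages. Weight-loss (WL) mice had the same 12 or 25 weeks of HFD followed by 8 weeks of chow (HC and HHC). These were killed at 26 weeks (HC) or 39 weeks (HHC) of age and were compared with CC_s and CCC, of the same ages. The 84 libraries gave 32 groups of mark and diet, 20 with 3 libraries and 12 with 2, with 21 libraries of H3K4me3 and of H3K27ac, 20 of H3K27me3 and 22 of H3K4me1. By the study's workflow the marks were assayed in adipocytes of one fat depot, so libraries of different marks can come from the same mouse, the number of mice is below the number of libraries, and the marks are not independent of each other.

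Each library was a list of peaks, with 11249 to 46397 peaks. A promoter was called marked when a peak touched the window within 2000 bp of one of its protein-coding start sites, and the covered share is the percentage of that window lying under peaks. Read depth is unknown, so the absence of a peak is not the absence of the mark. Of 12 adipocyte marker genes, H3K4me3 peaks marked 11 to 12 (median 12, 10 libraries) in control, 9 to 12 (median 11, 5 libraries) in obese and 7 to 12 (median 11, 6 libraries) in WL libraries. Of 10 macrophage markers the same count was 0 to 3 (median 1.5, 10 libraries), 0 to 8 (median 7, 5 libraries) and 0 to 9 (median 5.5, 6 libraries), with Cd163 marked in no library. Of 8 lymphocyte markers it was 0 to 2 (median 0, 10 libraries), 0 to 5 (median 0, 5 libraries) and 0 to 8 (median 5, 6 libraries), and of 7 endothelial markers 0 to 4 (median 2, 10 libraries), 0 to 6 (median 6, 5 libraries) and 1 to 5 (median 4, 6 libraries), with Vwf marked in no library. Of 6 mesothelial markers it was 0 to 3 (median 2), 0 to 2 (median 0) and 0 to 3 (median 1.5) in the same libraries. Of 6 progenitor markers it was 0 to 5 (median 4.5), 0 to 5 (median 5) and 2 to 5 (median 4). Of 5 mural markers it was 0 to 4 (median 2), 1 to 4 (median 3) and 1 to 4 (median 3). The part of these cells in the results below was not tested. For 4 libraries of H3K4me3 (replicate 2 of CC_l, replicates 2 and 3 of HH and replicate 3 of CCC) the treatment field of the labels disagreed with the title, and the title was followed. Several groups differed in how much of the genome their peaks covered. The H libraries covered 9.6 to 24.4 Mb of genome with H3K27ac against 42.8 to 49 Mb in C, 11 to 30.2 against 41 to 53.4 Mb with H3K4me3 and 16.9 to 20 against 43 to 64.1 Mb with H3K27me3. Among the H3K27ac libraries CCC replicate 3 marked fewer promoters than any other library.

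In the control libraries most nuclear receptor promoters carried H3K4me3, and a larger share than among all promoters carried it together with H3K27me3. Taking a mark as present when more than 50% of the control libraries had it, 23 members (54.8%) had H3K4me3 without H3K27me3, against 53.2% of all promoters. Both marks lay at 8 members, against 4.39% of all promoters: Pgr, Rxrg, Esrrb, Esrrg, Rorb, Nr2f1, Nr4a2 and Nr4a3. H3K27me3 alone was found at 5 members (11.9%, against 10.6%), namely Esr2, Nr2e1, Nr5a1, Nr5a2 and Nr0b2. Neither mark was found at 6 members (14.3%, against 31.8%), which were Nr1h4, Nr1i2, Nr1i3, Hnf4a, Hnf4g and Nr2e3. These shares are a description of a chosen list, and no test was made of them.

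All 6 receptors for thyroid hormone, retinoic acid and vitamin D had H3K4me3 alone, as did the steroid receptors Esr1 (oestrogen), Nr3c1 (glucocorticoid) and Nr3c2 (mineralocorticoid). Among steroid receptors the progesterone receptor Pgr had both marks and the second oestrogen receptor Esr2 had H3K27me3 alone. Rxra and Rxrb, the dimer partners of many other members, had H3K4me3 alone. Of the lipid and xenobiotic sensors, Ppara and Ppard (fatty acids) and Nr1h2 and Nr1h3 (oxysterols) had H3K4me3, while the bile acid receptor Nr1h4 and the xenobiotic receptors Nr1i2 and Nr1i3 had neither mark. The liver regulators Hnf4a and Hnf4g also had neither. Of the immediate-early receptors Nr4a1 had H3K4me3 alone and the other two had both marks. The steroidogenic factor Nr5a1, its relative Nr5a2 and the corepressor-like Nr0b2, which lacks a DNA-binding domain, had H3K27me3 alone.

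Over all 84 libraries, 22 members carried H3K4me3 in every one of 21 libraries and 5 in none, against 39.2% and 27.2% of all promoters. For H3K27me3 the counts were 6 in every library and 9 in none of 20, against 4.02% and 52.3% of all promoters. H3K27ac lay at 4 members in every library and at 10 in none of 21, against 8.67% and 33.9%. H3K4me1 lay at 2 members in every library and at 8 in none of 22, against 1.57% and 34.9%.

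**Figure D1:**
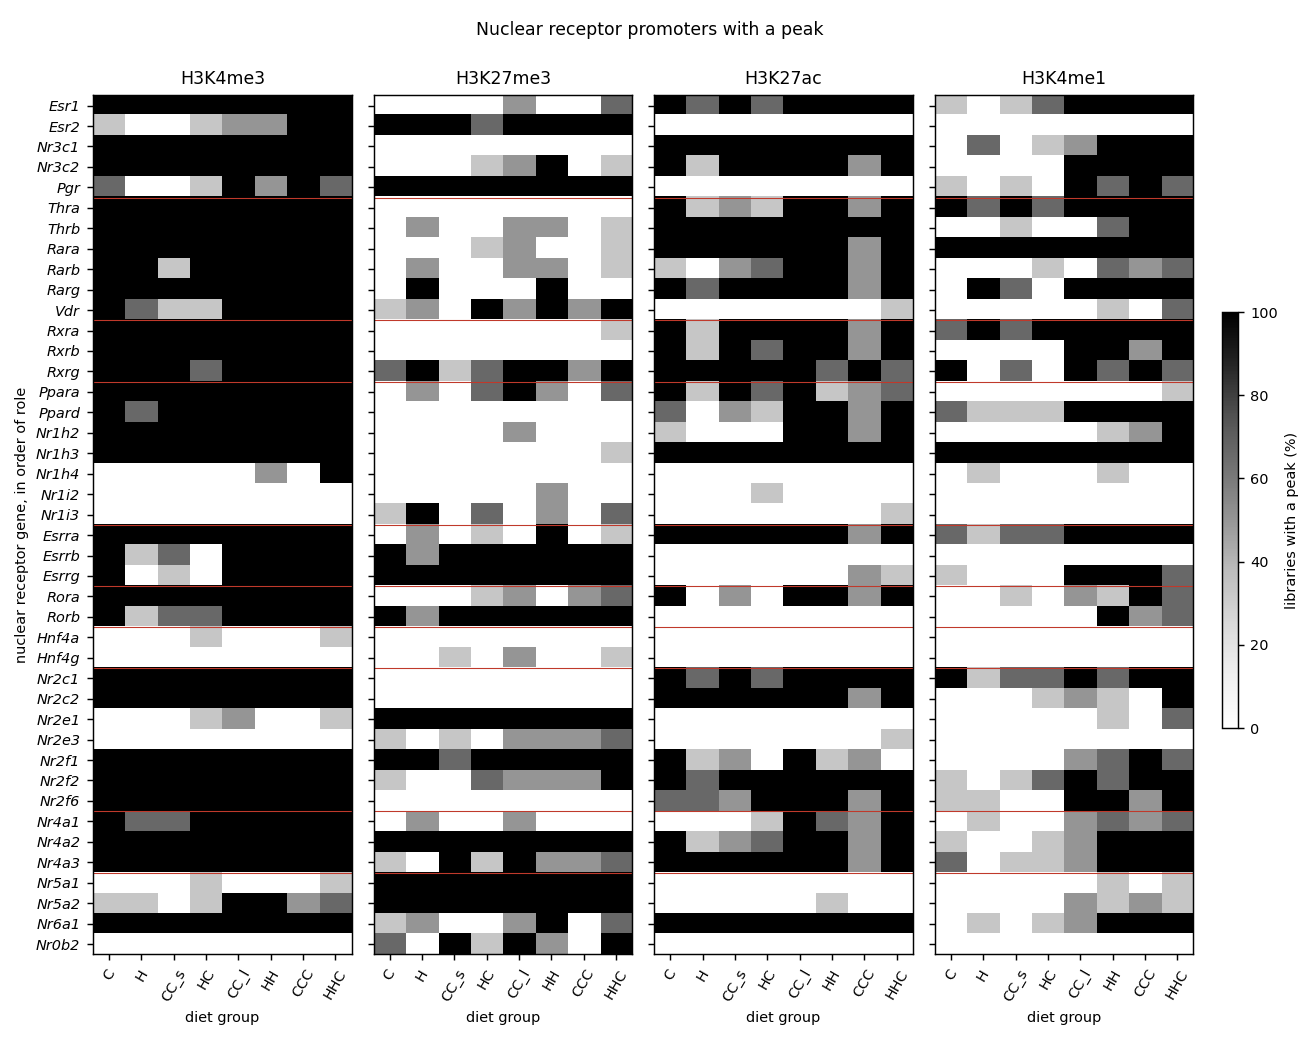
Share of libraries with a peak at the promoter (colour, percent) for the 42 nuclear receptors (rows, ordered by role) in the 8 diet groups (columns), 1 panel a mark. Filled rows for H3K4me3 cover 22 members marked in all 21 libraries, and the H3K27me3 panel is filled for a smaller set of which 6 were marked in all 20.

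One promoter of each state is shown, with CpG dinucleotides in capitals. The 4 were picked for their CpG content and lie at or near the dense or the sparse end of their state. Each is the 250 bases upstream of the RefSeq start site (GRCm38.p6), read on the gene's strand: Rxra at chr2:27676951-27677200 (plus strand, 40 CpG, H3K4me3 alone), Nr4a2 at chr2:57124004-57124253 (minus strand, 44 CpG, both marks), Nr0b2 at chr4:133553126-133553375 (plus strand, 3 CpG, H3K27me3 alone) and Nr1i2 at chr16:38294825-38295074 (minus strand, 2 CpG, neither mark).
Rxra: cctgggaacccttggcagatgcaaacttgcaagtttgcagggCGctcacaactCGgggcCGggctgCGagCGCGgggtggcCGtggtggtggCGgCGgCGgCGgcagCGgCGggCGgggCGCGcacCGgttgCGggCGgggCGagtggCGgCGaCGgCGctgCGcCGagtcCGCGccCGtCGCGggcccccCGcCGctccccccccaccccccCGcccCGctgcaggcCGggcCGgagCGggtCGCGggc
Nr4a2: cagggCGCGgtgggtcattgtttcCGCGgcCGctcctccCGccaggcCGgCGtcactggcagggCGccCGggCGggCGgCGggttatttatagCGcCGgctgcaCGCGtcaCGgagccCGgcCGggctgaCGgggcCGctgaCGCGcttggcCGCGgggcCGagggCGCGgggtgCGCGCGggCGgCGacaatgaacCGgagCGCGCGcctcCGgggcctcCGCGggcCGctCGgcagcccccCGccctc
Nr0b2: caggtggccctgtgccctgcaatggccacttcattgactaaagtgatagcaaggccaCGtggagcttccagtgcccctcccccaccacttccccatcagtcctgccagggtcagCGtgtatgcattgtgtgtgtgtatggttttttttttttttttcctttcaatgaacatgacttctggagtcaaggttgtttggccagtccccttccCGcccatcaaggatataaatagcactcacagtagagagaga
Nr1i2: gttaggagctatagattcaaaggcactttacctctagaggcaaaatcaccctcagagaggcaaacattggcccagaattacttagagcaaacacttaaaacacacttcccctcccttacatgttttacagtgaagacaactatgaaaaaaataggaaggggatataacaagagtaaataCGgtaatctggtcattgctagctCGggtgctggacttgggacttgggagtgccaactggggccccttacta

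The states overlapped widely in CpG content. Over the 38 members in the RefSeq promoter table (300 bases each), the median ratio of observed to expected CpG was 0.769 for H3K4me3 alone, 0.710 for both marks, 0.379 for H3K27me3 alone and 0.183 for neither. The ratio ran from 0.109 (Nr2f2) to 1.08 (Rxra) over the 21 members with H3K4me3 alone, from 0.266 to 1.04 over the 8 with both marks, from 0.152 to 0.770 over 4 with H3K27me3 alone and from 0.130 to 0.449 over 5 with neither. Over all promoters of the same states it was 0.781, 0.685, 0.465 and 0.174. The core motif AGGTCA, searched on both strands, was in 4 of 38 member promoters (10.5%) and in 14.2% of 16515 promoters. A match is a stretch of letters and not a bound site.

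The number of nuclear receptor promoters with a peak ranged widely between libraries. It ran from 24 to 36 with H3K4me3, 8 to 27 with H3K27ac, 10 to 28 with H3K27me3 and 4 to 31 with H3K4me1. The mean number of members with H3K4me3 differed between obese and control libraries by -4.33 in the 12-week and -0.5 in the 25-week cohort, and with H3K27ac by -8.33 and -1.67. For H3K27me3 the same values were 2.17 and 0, with -1.17 to 3.33 for the mean of both cohorts when single libraries were left out, and for H3K4me1 they were -2 and 4.5, of opposite sign. After WL they were 1.67 and 1.83 with H3K4me3, 2.67 and 8.33 with H3K27me3, -1.17 and 8.17 with H3K27ac and 0 and 3.17 with H3K4me1. Averaged over the cohorts the H3K27me3 difference after WL was 5.5 members, and 1.75 with windows of 500 bp. As a share of members the H3K27me3 difference after WL was 13.1 percentage points, against 0.91 over all promoters, and the H3K27ac difference in obesity was -11.9, against -3.92. The WL difference in H3K27ac, 3.5 members as a mean of both cohorts, was -1.25 without CCC replicate 3, in which 8 members were marked.

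**Figure D2:**
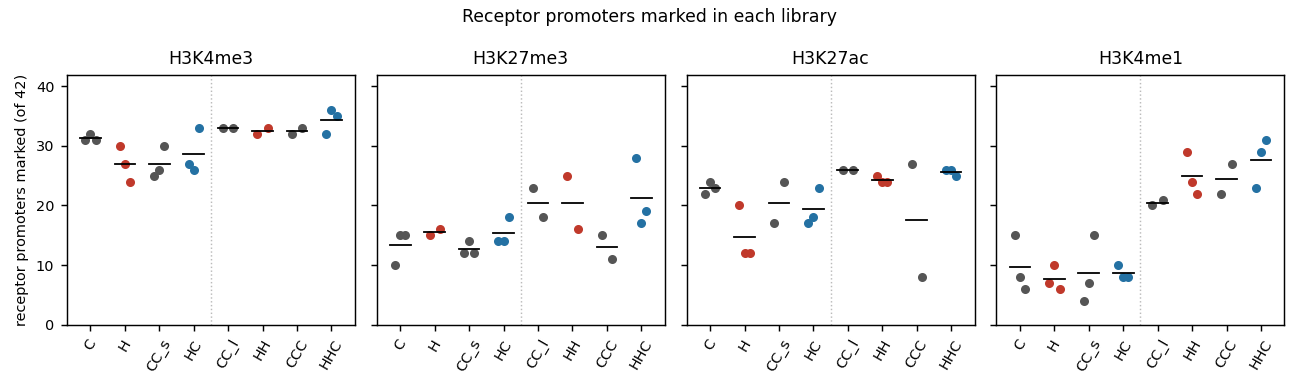
Number of the 42 nuclear receptor promoters with a peak in each library (points) by diet group, 1 panel a mark, with the group mean as a line. The lowest H3K27ac count, 8 members, is CCC replicate 3. Most diet groups overlap their controls, but every panel has a diet group that does not. With H3K4me3 this is H (24 to 30, C 31 to 32) and with H3K27me3 HHC (17 to 28, CCC 11 to 15). With H3K27ac it is H (12 to 20, C 22 to 24) and HH (24 to 25, CC_l 26). With H3K4me1 it is HH (22 to 29, CC_l 20 to 21).

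H3K4me3 covered less of 4 receptor promoters in the obese libraries than in controls, mostly in the 12-week cohort, where the H libraries covered less of the genome as a whole. Over all promoters the mean covered share was 10.7 to 23.9% in H and 29.2 to 32.9% in C. Of 35 members tested, 4 had a lower covered share in obesity at an unadjusted p under 0.05 (Esr1, Rarg, Rxra and Nr2f1) and 0 a higher one, where 3.67% of all tested promoters were lower and 0.0132% higher. The test was an exact two-sided permutation of library labels within cohorts. The median difference was -8.45 percentage points over the members and -4.59 over all promoters, and 31 of the 35 members lay below 0. None of the 4 kept its call in every setting. Esr1, Rarg and Rxra lost it with windows of 500 bp, Nr2f1 with equal numbers of peaks, Nr2f1 and Rarg with a stricter peak threshold, and all 4 with the treatment field followed, where the difference at Rxra was less than 1 percentage point. By presence or absence of a peak 0 members were called. With promoters ranked by signal within each library, 8 members were lower (Esr1, Nr3c2, Rxra, Nr1h2, Esrrg, Rora, Nr2f1 and Nr2f2) and 2 higher (Rara and Rarb), beside 7.98% of all promoters lower and 6.32% higher. Such ranks take out a change shared by a whole library by construction. The p-values measure the spread between these libraries. No promoter passed an adjusted p of 0.05 in any coverage test here, and for H3K4me3 in obesity the smallest adjusted p was 0.768.

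Nr2f1, an orphan receptor known from neural development, had the widest difference of the 4. Its covered share was 96.2, 80.9 and 84.3% in C against 24.6, 28 and 3.75% in H, and 65 and 100% in CC_l against 61.1 and 83.1% in HH. H lay below C without overlap, while HH and CC_l overlapped. The pooled difference was -39.4 percentage points (exact permutation test, unadjusted p = 0.0333, adjusted p = 0.768).

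Esr1 (gene chr10:4611593-5005614, GRCm38), the oestrogen receptor alpha, had H3K4me3 over 65, 70.8 and 68.4% in C and 25.6, 31.7 and 8.75% in H, and was 67.3 and 74.4% in CC_l and 67.8 and 65.8% in HH. The difference, -25 percentage points (exact permutation test, unadjusted p = 0.0333, adjusted p = 0.768), was -46 points in the 12-week and -4.05 in the 25-week cohort, so that nearly all of it came from H. Rarg, a retinoic acid receptor, was 78.4, 77.9 and 78.5% in C and 66.2, 53.9 and 32.9% in H, a pooled difference of -14.7 percentage points (exact permutation test, unadjusted p = 0.0333, adjusted p = 0.768). Rxra was 32.3, 31.4 and 31.6% in C and 24.6, 22.8 and 15.3% in H, with -6.26 percentage points (exact permutation test, unadjusted p = 0.0167, adjusted p = 0.768). H libraries lay below C libraries for both genes. In the 25-week cohort Rarg overlapped, and Rxra was 33.5 and 36.1% in CC_l and 33.2 and 33.2% in HH.

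After WL, 1 of 37 members tested was higher, Rara, and 0 were lower, with 3.19% of all promoters higher and 1.26% lower (smallest adjusted p 0.723). The promoter of Rara (gene chr11:98927818-98974942), the retinoic acid receptor alpha, was covered over 61.7 and 63.7% in CCC and 76.3, 86.1 and 92.4% in HHC, and over 21, 27 and 44% in CC_s and 46.9, 31.5 and 71.3% in HC. HHC lay above CCC without overlap, and HC overlapped CC_s. The difference was 20.7 percentage points (exact permutation test, unadjusted p = 0.015, adjusted p = 0.723). One of the CCC libraries is among those whose labels disagree. With the treatment field followed instead of the title, the H3K4me3 tests called Rara after WL and Esrra in obesity, 2 in place of 5. Rara kept its call by rank, but lost it with windows of 500 bp, with equal numbers of peaks, with the stricter threshold and by presence or absence. By rank 4 members were lower after WL (Esr1, Rxrg, Esrrb and Nr2f1) and 2 higher (Rara and Nr4a1), beside 8.08% of all promoters lower and 6.27% higher.

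A promoter was called separated when every library of one group and no library of the other had a peak. For H3K4me3 this called a gain at 0.00458% and a loss at 1.71% of all promoters for H over C, 0.32% and 0.0183% for HC over CC_s, 1.32% and 0.481% for HH over CC_l, and 1.39% and 0.375% for HHC over CCC. Among the members Esrrg was lost in H and Nr1h4 was gained in HHC. Esrrg, an oestrogen-related receptor of oxidative metabolism, was covered over 46.6, 45.9 and 35.8% in C and 0% in all 3 H libraries, and lay between 30.7 and 59.3% in every library of the 25-week cohort. Nr1h4, the bile acid receptor, was covered over 16.6, 29.6 and 30.4% in HHC and in only 1 of the other 18 libraries, an HH library with 15.1%. With 1 of 42 members called in each case, these counts are read beside the shares above and single out no group.

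Repressive H3K27me3 was gained at Rarg in both obese groups and covered less of Nr5a2 in obesity and of Pgr and Rorb after WL. The H libraries of this mark covered 16.9 to 20 Mb of genome against 43 to 64.1 in C, and the HC libraries 8.54 to 36.3 Mb against 43.2 to 60.5 in CC_s, and the part of this in the lower values was not tested. In the 25-week cohort HH covered 50.1 to 101 Mb and CC_l 69.3 to 109.6, and HHC 78 to 82.9 Mb and CCC 61.4 to 70.4. Separation called a gain at 1.29% and a loss at 1.61% of all promoters for H over C, 0.165% and 0.828% for HC over CC_s, 1.05% and 0.943% for HH over CC_l, and 1.37% and 0.732% for HHC over CCC, and 4 members: Rarg gained in H and HH, Esrra gained in HH, Vdr gained in HC and Nr0b2 gained in HHC, with 0 members lost.

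Rarg (gene chr15:102234938-102257517) had H3K27me3 over 9.21 and 5.27% of its promoter in H and 33.9 and 15.6% in HH, and over 0% in all 16 other libraries, WL included. The difference in obesity was 16 percentage points (exact permutation test, unadjusted p = 0.0167, adjusted p = 0.395), with the smallest p that 60 labellings can give. The test passed by rank and by presence or absence, but not with windows of 500 bp, equal numbers of peaks or the stricter threshold.

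Esrra, the oestrogen-related receptor alpha that drives mitochondrial genes, had H3K27me3 over 7.65 and 21% in HH and 0% in both CC_l libraries. Its window overlaps that of Catsperz, so the peak cannot be assigned to Esrra alone. Vdr, the vitamin D receptor, was covered over 1.5, 2.15 and 19.4% in HC and 0% in all 3 CC_s libraries, but controls of the longer cohort reached 86.2% (CC_l) and 58.6% (CCC). Nr0b2 was covered over 47.8, 2.27 and 57.9% in HHC and 0% in both CCC libraries, whereas it was covered in 7 of the 8 other control libraries. The gains at Vdr and Nr0b2 thus concerned 1 comparison each and promoters that other chow-fed groups also had marked.

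In the tests of H3K27me3 coverage in obesity, 1 of 31 members was lower (Nr5a2) and 1 higher (Rarg), with 6.01% of all promoters lower and 0.798% higher. Nr5a2 (gene chr1:136842571-136960448), a regulator of steroid and bile acid synthesis, had 68.7, 77.7 and 77.7% in C and 48.3 and 38.1% in H, and 95.5 and 95.4% in CC_l and 87.6 and 67.2% in HH. Controls lay above obese libraries in both cohorts, a difference of -24.8 percentage points (exact permutation test, unadjusted p = 0.0167, adjusted p = 0.395). Nr5a2 kept its call with equal numbers of peaks and the stricter threshold and lost it by rank, with windows of 500 bp and by presence or absence.

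After WL, 2 of 29 members were lower (Pgr and Rorb) and 0 higher, with 7.9% of all promoters lower and 1.44% higher. Pgr (gene chr9:8899833-8968611) had 100% in all 3 CC_s libraries and 74.8, 18.7 and 20.1% in HC, and 100% in both CCC libraries and 86.7, 95.2 and 57.4% in HHC, a difference of -41.2 percentage points (exact permutation test, unadjusted p = 0.01, adjusted p = 0.366). The controls were covered completely and every WL library less. Rorb, a retinoid-related orphan receptor, had 31.6, 16.6 and 27.1% in CC_s and 28.2, 4.87 and 9.12% in HC, and 33.3 and 27.6% in CCC and 17.1, 17.6 and 3.17% in HHC, a difference of -14.4 percentage points (exact permutation test, unadjusted p = 0.025, adjusted p = 0.383). Both kept their calls with equal numbers of peaks and with the stricter threshold, and lost them by rank, with windows of 500 bp and by presence or absence. By rank 1 member was lower (Nr5a1) and 4 were higher (Vdr, Ppara, Nr1i3 and Nr2f2), beside 5.23% of all promoters lower and 6.19% higher. Of the 29 members 20 had a difference above 0, and the median over the 29 members was +3.96 points against +0.85 over all promoters. The smallest adjusted p was 0.395 in obesity and 0.354 after WL.

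Promoter H3K27ac covered less of 11 receptor promoters in the obese libraries. Of 27 members tested, 11 were lower at an unadjusted p under 0.05 and 0 higher, where 14.7% of all tested promoters were lower and 0.557% higher. They were the steroid receptors Esr1, Nr3c1 and Nr3c2, the thyroid hormone receptor Thra, the retinoid X receptors Rxra and Rxrb, the fatty acid receptor Ppara, Esrra, and the orphan receptors Nr2c1, Nr2c2 and Nr2f2. The windows of Rxrb and Esrra are shared with neighbouring genes. The median difference was -14.3 percentage points over the members and -7.30 over all promoters. The smallest adjusted p was 0.237.

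Nr2f2 (gene chr7:70351944-70366735), an orphan receptor also called COUP-TFII, had the largest of these differences. Its covered share was 68.4, 68.1 and 70.4% in C and 18.5, 0 and 5.97% in H, and 87 and 83% in CC_l and 50.1, 44.6 and 67.5% in HH. The controls lay above the obese libraries in both cohorts, a difference of -45.9 percentage points (exact permutation test, unadjusted p = 0.01, adjusted p = 0.237) with -60.8 points in the 12-week and -30.9 in the 25-week cohort. After WL it was 43 and 54.8% in CC_s and 32, 7.55 and 14.9% in HC, and 69.5 and 28.9% in CCC and 19.8, 75.8 and 15% in HHC, where the longer cohort overlapped. That difference was -21.6 percentage points (exact permutation test, unadjusted p = 0.18, adjusted p = 0.962).

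Thra (gene chr11:98740638-98769006), the thyroid hormone receptor alpha, had 53.5, 87.1 and 69.2% in C and 23.6, 0 and 0% in H, and 93.5 and 95.4% in CC_l and 88, 79.7 and 57.5% in HH, a difference of -40.7 percentage points (exact permutation test, unadjusted p = 0.01, adjusted p = 0.237). Ppara (gene chr15:85734983-85802819), the activator of fatty acid oxidation, had 49.3, 50.2 and 35.1% in C and 13.9, 0 and 0% in H, and 15.9 and 23.4% in CC_l and 0, 0 and 20.5% in HH, a difference of -26.5 percentage points (exact permutation test, unadjusted p = 0.015, adjusted p = 0.245). Neither gene overlapped in the 12-week cohort. In the 25-week cohort Thra again did not overlap, and Ppara did.

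Esr1 had 76.2, 71 and 60.3% in C and 5.58, 9.36 and 0% in H, and 30 and 35.7% in CC_l and 48, 33.7 and 8.99% in HH, a difference of -33.4 percentage points (exact permutation test, unadjusted p = 0.045, adjusted p = 0.281). It was also the only one of 31 members lower after WL, where 0.378% of all promoters were lower and 1.55% higher (0 members higher, smallest adjusted p 0.962). There it was 32.5 and 57.8% in CC_s and 0, 12.1 and 5.75% in HC, and 70.3 and 37.1% in CCC and 33.7, 47.5 and 34.4% in HHC, a difference of -27.2 percentage points (exact permutation test, unadjusted p = 0.02, adjusted p = 0.962). HC lay below CC_s without overlap, and HHC overlapped CCC. With single libraries left out the difference ran from -35.5 to -18.9 points, and most of those fits did not pass an unadjusted p of 0.05.

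For the glucocorticoid receptor Nr3c1 the share was 78.7, 65.6 and 69% in C and 25.8, 11.9 and 31.9% in H, and 94.7 and 77% in CC_l and 55.9, 97.6 and 73.5% in HH, a difference of -29.1 percentage points (exact permutation test, unadjusted p = 0.025, adjusted p = 0.259). For Rxra it was 19.2, 25.9 and 22.8% in C and 0, 0 and 6.48% in H, and 72.8 and 38% in CC_l and 50.2, 29.8 and 18.5% in HH, a difference of -21.5 percentage points (exact permutation test, unadjusted p = 0.025, adjusted p = 0.259). Neither overlapped in the 12-week cohort, and both did in the 25-week cohort. Of the receptors named whatever they did, Nr1h3, the oxysterol receptor LXR alpha, differed by -28.6 points (unadjusted p = 0.05 by the same exact permutation test) and Ppard by -8.88 points (exact permutation p = 0.36), neither past the threshold.

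**Figure D3:**
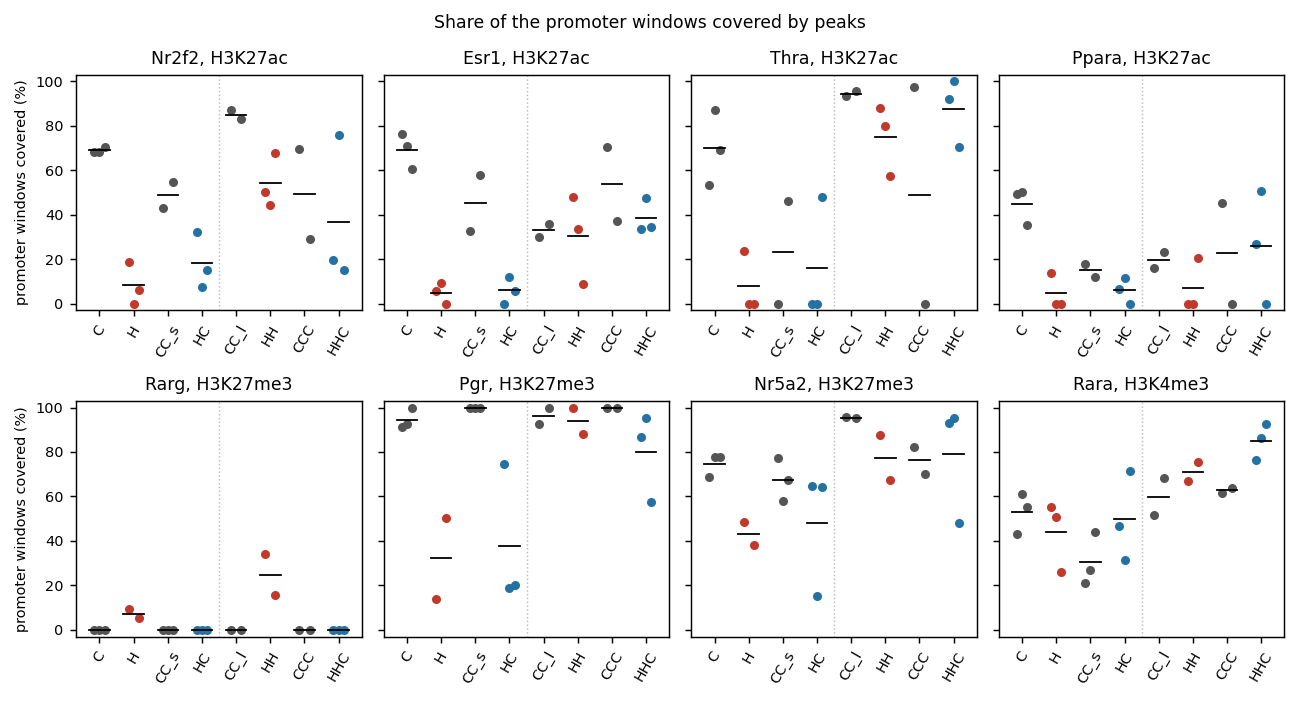
Covered share of the promoter window (percent) in each library (points) by diet group for H3K27ac at Nr2f2, Esr1, Thra and Ppara, H3K27me3 at Rarg, Pgr and Nr5a2 and H3K4me3 at Rara, with group means as lines. Grey points are controls, red obese and blue WL, and a dotted line divides the 2 cohorts. Nr2f2 H3K27ac lies between 68.1 and 70.4% in C and between 0 and 18.5% in H.

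In the 12-week cohort the H3K27ac peaks differed over the whole library, with a median width of 477 to 801 bp in H and 1372 to 1765 bp in C. After WL the median width was 672 to 906 bp in HC and 1232 to 1494 bp in CC_s. The part of this in the 12-week differences, in obesity and after WL, was not tested. In the 25-week cohort, where the libraries covered 76.7 to 85.8 Mb (HH) and 76.2 to 90.1 Mb (CC_l), the difference was -30.9 points for Nr2f2, -19.4 for Thra, -12.8 for Ppara and -2.66 for Esr1. With every library held to equal numbers of peaks 4 members were lower in obesity, Esr1, Nr3c1, Nr2c1 and Nr2f2, beside 12.4% of all promoters lower and 0.811% higher. Equal numbers leave the width of each peak as it was. With promoters ranked by signal within each library 5 were lower (Esr1, Ppara, Nr2c1, Nr2f1 and Nr2f2) and 0 higher, beside 6.78% of all promoters lower and 6.37% higher. Ranking takes out a change shared by a whole library, but it need not make the split even. The differences at Nr2f2 and Thra passed an unadjusted p of 0.05 with any one library left out, whereas the other 9 lost it in at least 1 such fit. Macrophage markers with H3K27ac numbered 0 to 4 (median 1, 9 libraries) of 10 in control, 0 to 7 (median 4, 6 libraries) in obese and 0 to 9 (median 2.5, 6 libraries) in WL libraries, with Cd163 at 0 throughout, and adipocyte markers 12 in each of 9 libraries, 7 to 12 (median 11, 6 libraries) and 8 to 12 (median 12, 6 libraries) of 12. Lymphocyte markers numbered 0 in each of 9 libraries, 0 to 2 (median 0, 6 libraries) and 0 to 7 (median 1, 6 libraries) of 8, and endothelial markers 0 to 1 (median 0, 9 libraries), 1 to 6 (median 2, 6 libraries) and 0 to 5 (median 2.5, 6 libraries) of 7. Medians in the same order were 0, 0 and 0 of 6 mesothelial, 1, 1.5 and 3 of 6 progenitor and 1, 1 and 1.5 of 5 mural markers. The part of these cells in these results was not tested. In peak lists of nuclei pulled down in bulk from tissue, fewer cells with a mark and less of it per cell cannot be told apart.

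Separation of H3K27ac called a gain at 0.146% and a loss at 1.94% of all promoters for H over C, 0.297% and 0.499% for HC over CC_s, 0.448% and 0.403% for HH over CC_l, and 2.32% and 0.0686% for HHC over CCC. The one member called was Rora, lost in H, with 16.8, 19.9 and 9.75% in C and 0% in all 3 H libraries and 47 and 71.7% in CC_l and 30.1, 59.6 and 49% in HH. Rora, a retinoid-related orphan receptor of the circadian and lipid programmes, was covered in every 25-week obese library.

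Promoter H3K4me1 differed at few receptors. Separation called a gain at 0.59% and a loss at 0.32% of all promoters for H over C, 0.215% and 0.101% for HC over CC_s, 2% and 0.705% for HH over CC_l, and 3.98% and 0.494% for HHC over CCC, and 4 members: Rarg gained and Rxrg lost in H, Rorb gained in HH and Nr2c2 gained in HHC. Rarg had 0% in all 3 C libraries and 3.17, 5.26 and 4.02% in H, a gain of a few percent of its window. Rorb had 0% in both CC_l libraries and 17.3, 29 and 43.1% in HH, and Nr2c2 had 0% in both CCC libraries and 26.7, 21.3 and 47% in HHC. Both receptors had no H3K4me1 peak in nearly all libraries of the 12-week cohort.

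In the coverage tests 1 of 33 members was lower in obesity, Rxrg, and 0 higher, with 1.6% of all promoters lower and 2.09% higher. Rxrg, the retinoid X receptor gamma, had 12.2, 19.8 and 28.7% in C and 0% in all 3 H libraries, and 22.6 and 32.8% in CC_l and 0, 17.6 and 24.7% in HH, a difference of -16.9 percentage points (exact permutation test, unadjusted p = 0.02, adjusted p = 0.77). After WL 0 of 33 members passed in either direction, with 0.566% of all promoters lower and 1.3% higher. The smallest adjusted p was 0.77 and 0.742.

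The H3K27ac difference at Nr2f2 was wider still in the body of the gene than at its start. Outside the promoter windows the gene spans 8.79 kb, and H3K27ac peaks covered 7.01, 7.44 and 8.19 kb in C and 2.4, 0 and 0 kb in H, and 7.66 and 8.79 kb in CC_l and 4.7, 2.94 and 5.92 kb in HH. After WL they covered 4.31 and 5.81 kb in CC_s and 1.67, 1.89 and 0.664 kb in HC, and 8.18 and 5.92 kb in CCC and 1.51, 5.68 and 2.73 kb in HHC. Every control library lay above every diet library of its comparison in all 4 comparisons. The H3K27ac peaks of H and HC were narrower than those of their controls over the whole library. The part of this in the values of the gene body was not tested.

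The difference in obesity was -59.5 percentage points of the body (exact permutation test, unadjusted p = 0.005, adjusted p = 0.144), and this p is the smallest that 200 labellings can give. Of 10079 tested genes 8 had a lower difference. The differences are in points of each gene's own body, so a gene with little covered in controls cannot fall as far. In the controls of this contrast peaks covered a mean of 88.9% of the Nr2f2 body and 4.05% of the Esr1 body. After WL the difference at Nr2f2 was -42.1 percentage points of the body (exact permutation test, unadjusted p = 0.01, adjusted p = 0.892), with 8 of 11086 genes lower. Held to equal numbers of peaks, the differences were -64.1 percentage points of the body (exact permutation test, unadjusted p = 0.005, adjusted p = 0.158) and -37.3 percentage points of the body (exact permutation test, unadjusted p = 0.03, adjusted p = 0.929). The tests of gene bodies were added after the promoter values had been seen.

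Over all gene bodies, H3K27ac coverage in obesity was lower at 14.8% and higher at 0.685%. Of 28 members 9 were lower (Esr1, Thra, Thrb, Rxra, Esrrg, Hnf4a, Nr2c1, Nr2f2 and Nr6a1) and 0 higher. Held to equal numbers of peaks, 4 of 22 were lower (Esr1, Thrb, Nr2c1 and Nr2f2) and Rara was higher. The share of all gene bodies called with equal numbers of peaks was not counted, for H3K27ac or for H3K4me1. After WL 1.08% of genes were lower and 0.992% higher, and of 31 members Nr2f2 was lower and Rarg higher. Rarg, with 16.6 kb outside its promoter windows, had 1.05 and 0 kb in CC_s and 1.42, 1.49 and 2.7 kb in HC, and 5.89 and 0 kb in CCC and 11.2, 6.8 and 9.76 kb in HHC, a difference of 23.1 percentage points of the body (exact permutation test, unadjusted p = 0.01, adjusted p = 0.892). The CCC library at 0 is replicate 3. With equal numbers of peaks Rarg lost its call (exact permutation test, unadjusted p = 0.15), and of 24 members Esr1, Nr2c1 and Nr2f2 were lower after WL and 0 higher.

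For H3K4me1, 6.85% of gene bodies were lower and 5.82% higher in obesity. Of 36 members Esr1 and Hnf4a were lower and Rarg higher. In the 388 kb body of Esr1, H3K4me1 peaks covered 17.6, 15.7 and 10.6 kb in C and 2.68, 4.37 and 5.29 kb in H, and 18.8 and 26.1 kb in CC_l and 4.93, 10.2 and 13.8 kb in HH. Both obese groups lay below their controls without overlap, a difference of -3.01 percentage points of the body (exact permutation test, unadjusted p = 0.005, adjusted p = 0.241). Adipocyte markers with H3K4me1 numbered 8 to 11 (median 11, 10 libraries) of 12 in control, 3 to 12 (median 8.5, 6 libraries) in obese and 4 to 11 (median 9.5, 6 libraries) in WL libraries, the lowest being HH replicate 1 at 3 and HC replicate 3 at 4. Macrophage markers numbered 0 to 2 (median 1, 10 libraries), 0 to 5 (median 2, 6 libraries) and 0 to 4 (median 1, 6 libraries) of 10. Medians in the same order were 0, 0.5 and 0 of 8 lymphocyte, 0, 0.5 and 1 of 7 endothelial and 0, 0.5 and 0.5 of 6 mesothelial markers. They were 3, 3.5 and 3.5 of 6 progenitor and 2, 1.5 and 2.5 of 5 mural markers. The part of these cells in the H3K4me1 results at promoters, gene bodies and distal regions was not tested. H3K27ac over the same body was 28.4, 18.4 and 8.93 kb in C and 1.24, 0 and 0 kb in H, and 9.89 and 12.8 kb in CC_l and 4.9, 6.97 and 10.1 kb in HH, where the longer cohort overlapped, a difference of -2.87 percentage points of the body (exact permutation test, unadjusted p = 0.015, adjusted p = 0.185). After WL 2.18% of genes were lower and 3.56% higher in H3K4me1, and of 35 members only Vdr was lower. With equal numbers of peaks Vdr lost its call (exact permutation test, unadjusted p = 0.4), and in obesity Esr1 and Nr2c1 were lower and Rara and Rarg higher of 25 members. The smallest adjusted p in the gene body tests was 0.144 and 0.892 for H3K27ac and 0.241 and 0.557 for H3K4me1 in obesity and after WL.

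**Figure D4:**
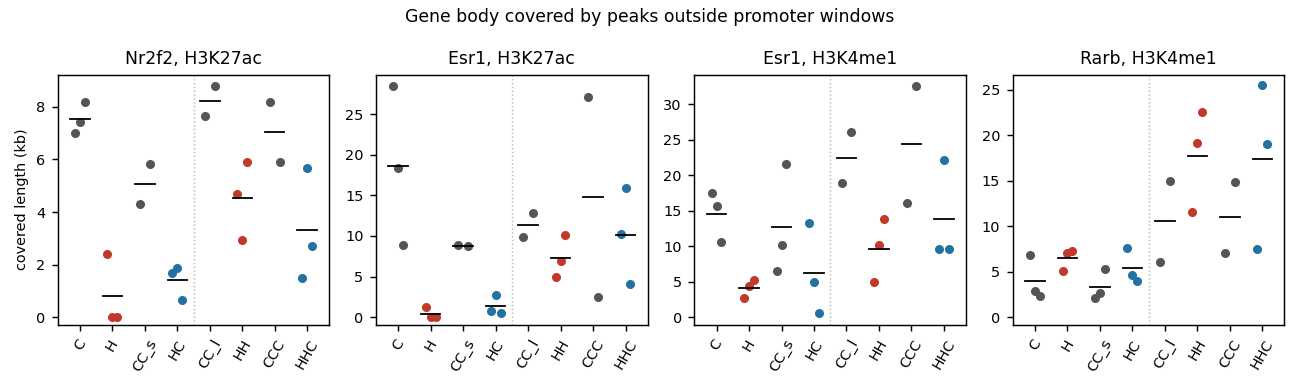
Length of gene body outside the promoter windows under peaks (kb) in each library (points) by diet group, for H3K27ac at Nr2f2 and Esr1 and H3K4me1 at Esr1 and Rarb, with group means as lines. Nr2f2 controls lie above the diet libraries of their comparison in all 4 comparisons, from 4.31 kb in CC_s to 8.79 kb in CC_l.

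Distal regions were merged peaks of H3K4me1, or separately of H3K27ac, outside every promoter window and free of H3K4me3, and they were given to a gene when their midpoint lay in its body. Of 15987 H3K4me1 regions in gene bodies 91 lay in 16 members, and of 16614 H3K27ac regions 72 lay in 17 members. For H3K4me1 separation called a gain at 0.475% and a loss at 0.388% of all such regions for H over C, 0.0188% and 0.288% for HC over CC_s, 0.932% and 3.3% for HH over CC_l, and 1.46% and 1.8% for HHC over CCC. Among the 91 member regions it called 1 gain and 1 loss for H, 2 losses for HC, 1 gain and 4 losses for HH, and 2 gains and 2 losses for HHC. These fell on 9 regions, 3 in Rora, 2 in Rarb and 1 each in Esr1, Vdr, Thrb and Esrrb. For H3K27ac it called a gain at 0% and a loss at 0.307% of all such regions for H over C, 0.0181% and 0.247% for HC over CC_s, 0.181% and 1.54% for HH over CC_l, and 0.566% and 0.271% for HHC over CCC, and among the 72 member regions 2 lost in HC (Esr1 and Rora) and 2 lost in HH (Nr3c1 and Rora). One region of Nr3c1, 7978 bp long, carried H3K4me1 in all 22 libraries.

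The regions of Esr1, Rarb and Vdr are shown because each was separated in more than 1 comparison, as was 1 Rora region. Each sequence is 300 bases on the plus strand of GRCm38.p6, with CpG in capitals. It is centred on the median position of the strongest stretch of the peaks in the region, which need not be the region's middle. The sequences are Esr1 at chr10:4943276-4943575 within the intronic region chr10:4942182-4945492, Rarb at chr14:16547090-16547389 within chr14:16544013-16550196, which overlaps an exon, and Vdr at chr15:97878753-97879052 within the intronic region chr15:97877898-97880254.
Esr1: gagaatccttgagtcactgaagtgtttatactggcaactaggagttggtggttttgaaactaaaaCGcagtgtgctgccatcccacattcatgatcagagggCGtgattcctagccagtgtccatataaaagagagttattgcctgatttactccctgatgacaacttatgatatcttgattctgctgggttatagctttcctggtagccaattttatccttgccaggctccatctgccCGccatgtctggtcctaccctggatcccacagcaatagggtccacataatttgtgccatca
Rarb: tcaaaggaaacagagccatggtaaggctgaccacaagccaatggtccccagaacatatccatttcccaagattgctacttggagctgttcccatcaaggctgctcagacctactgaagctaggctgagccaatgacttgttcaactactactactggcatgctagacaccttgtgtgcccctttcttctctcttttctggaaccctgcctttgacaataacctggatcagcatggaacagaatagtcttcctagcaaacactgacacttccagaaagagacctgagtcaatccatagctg
Vdr: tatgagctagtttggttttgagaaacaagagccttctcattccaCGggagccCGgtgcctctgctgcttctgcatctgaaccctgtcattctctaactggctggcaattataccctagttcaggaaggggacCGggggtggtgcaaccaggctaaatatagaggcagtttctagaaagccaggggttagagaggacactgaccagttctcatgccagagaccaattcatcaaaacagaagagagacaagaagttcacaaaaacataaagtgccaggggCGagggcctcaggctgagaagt

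None of the 3 windows held AGGTCA on either strand. With windows of 300 bases placed in the same way in all regions, it was in 24.2% of the 91 member regions and 22.6% of 15987. The Esr1 region lies 234 kb from the nearest start site of the gene. It carried H3K4me1 in 8 of 10 controls and in 0 of 12 libraries after HFD, obese and WL alike. H3K27ac peaks lay there in 6 of 9 control and 0 of 12 diet libraries.

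The covered share of the Esr1 region with H3K4me1 was 84.8, 39.8 and 0% in C, 0, 29.8 and 58% in CC_s, 34.7 and 67.3% in CC_l and 55.1 and 84.2% in CCC, and 0% in every diet library. The difference was -46.3 percentage points in obesity (exact permutation test, unadjusted p = 0.02) and -49.5 after WL (exact permutation test, unadjusted p = 0.02), with an adjusted p of 1 in both. Held to equal numbers of peaks, the region was marked in 2 of 10 control and 0 of 12 diet libraries. The Esr1, Rarb and Vdr regions were picked because peaks in these same libraries separated diet from control. Their p-values are tied to that choice and add no support to it.

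The Rarb region, 28.4 kb from the nearest start site of the retinoic acid receptor beta gene, was the reverse. It carried H3K4me1 in 0 of 10 control and 9 of 12 diet libraries, namely 2 of H, 1 of HC and all 3 of both HH and HHC. Of the obese libraries it covered 18.4, 19.7 and 0% in H and 33.5, 55.6 and 57% in HH and of the WL libraries 0, 0 and 13.5% in HC and 37.9, 49.1 and 68.3% in HHC, a difference of +30.7 points in obesity (exact permutation test, unadjusted p = 0.02, adjusted p = 1) and +28.1 after WL (exact permutation test, unadjusted p = 0.05, adjusted p = 1). H3K27ac peaks lay there in 0 of 9 control and 5 of 12 diet libraries. With equal numbers of peaks it was marked in 0 of 10 control and 5 of 12 diet libraries.

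The Vdr region carried H3K4me1 in 8 of 10 controls and in 1 of 12 libraries after HFD, an HHC library. The share was 71.2, 0 and 0% in C, 32, 46.8 and 51.3% in CC_s, 76.8 and 69.7% in CC_l and 59.2 and 91.3% in CCC, and the difference was -48.5 points in obesity (exact permutation test, unadjusted p = 0.05, adjusted p = 1) and -48.9 after WL (exact permutation test, unadjusted p = 0.015, adjusted p = 1). Held to equal numbers of peaks, 2 of 10 controls had it and 0 of 12 on diet. The other separated regions were less regular. The Thrb region chr14:17915143-17918742, in the thyroid hormone receptor beta gene, was marked in 5 of 10 control and 9 of 12 diet libraries, and the Rora regions in 5 to 9 of 10 control and 1 to 5 of 12 diet libraries. No region of any gene passed an adjusted p of 0.05, and the tests of regions were added after the calls had been seen.

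**Figure D5:**
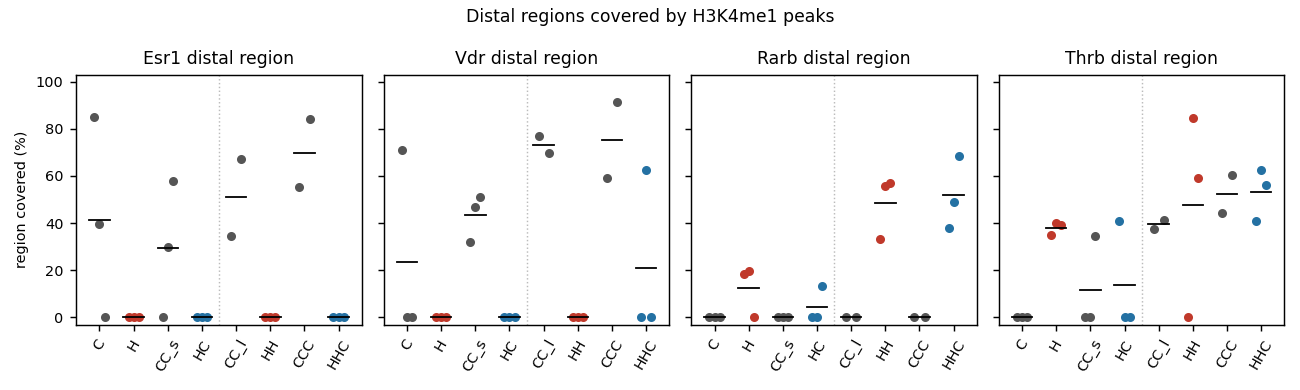
Covered share (percent) of the distal H3K4me1 regions in Esr1, Vdr, Rarb and Thrb in each library (points) by diet group, with group means as lines. The Esr1 region is at 0% in all 12 diet libraries and the Rarb region at 0% in all 10 controls.

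Genes that work with the receptors were counted in the same way. For H3K27ac in obesity 10 of 24 coregulators, the coactivators and corepressors that receptors recruit, were lower and 0 higher, with a median of -14.8 points, and of 23 tested target genes 7 were lower and 0 higher, with a median of -20.0 points, beside 14.7% of all promoters lower, a median of -7.30 points and the narrower peaks of H. After WL 0 of 24 coregulators and 0 of 22 targets passed in either direction, with 0.378% of all promoters lower and 1.55% higher. For H3K4me3 in obesity 1 of 24 coregulators and 1 of 24 targets were lower, beside 3.67% of all promoters. For H3K27me3, 20 of 24 coregulators were marked in no library, as were 52.3% of all promoters and 9 of the 42 receptors. In the separation calls the H3K4me1 gains in HHC included 3 of 24 coregulators, the coactivators Ncoa6 and Med1 and the demethylase Kdm1a, beside 3.98% of all promoters, and the losses 1, Ncoa1, beside 0.494%. Other calls held at most 1 coregulator and 1 target each. With H3K4me1 the coregulators Tbl1xr1 was gained and Ppargc1a lost in H (0.59% and 0.32% of all promoters), and Carm1 was gained in HH (2%). The coregulator Lpin1 gained H3K27me3 in HHC (1.37%). The coregulator Ncoa1 and the target Me1 lost H3K27ac in H (1.94%). The target Cyp26b1 lost H3K4me3 in H (1.71%).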

How the data were processed

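Peak lists of 84 CUT&Tag libraries were used as the authors deposited them, 1 BED file a library, with no pooling of replicates. Per the labels and the methods, the authors trimmed reads with Trim Galore 0.6.6, aligned them with Bowtie2 2.4.4, handled alignments with SAMtools 1.13 and bedtools 2.30, and called peaks with SEACR 1.3 at a threshold of 0.01. The value given with each peak is the total signal that the authors deposited. Read counts were not used here, so the count model of the study could not be run.

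Groups followed the sample titles. Promoter windows were 2000 bp on either side of each of 41438 protein-coding start sites of 21851 genes (GRCm38), and at least 1 bp of overlap marked a promoter. Of the members, 3 have windows shared with other genes (Rxrb, Esrra and Nr2e1). Covered shares were compared by an exact two-sided permutation test within cohorts, each comparison being averaged over the 12-week and the 25-week cohort, over every promoter marked in at least 1 library, with Benjamini-Hochberg adjustment. Marks assayed in one depot share a mouse, but diet and control libraries with the same number come from different mice, and the labels give no litter, batch or day for a number. Of 36 same-numbered pairs 7 deviated together (correlation over 0.1), and in 0 of 16 comparisons did every pair, so libraries were not paired.

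Values were given for members separated in a comparison or with an unadjusted p under 0.05, and for Ppara, Ppard, Rxra, Nr3c1, Esr1, Thra, Nr1h3 and Nr2f2 whatever they did. The members, lists and tests were chosen with earlier results of these data known. Tests of gene bodies and of distal regions were chosen after seeing the data. The separation and permutation code was tested on simulated data. Analyses ran in Python 3.11.15 with NumPy 2.4.6, pandas 2.3.3 and SciPy 1.17.1. Alternatives varied the window, the peaks kept, the overlap, the measure, the labels, the pairing and each library.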

Additional observations from a re-analysis of the deposited data

Results flagged for a closer look

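At 4 promoters the 2 cohorts moved in opposite directions, with every diet library on one side of its controls in the 12-week cohort and on the other side in the 25-week cohort. The difference between the cohorts was not tested in any of them, and diet length, age and library preparation cannot be told apart. The share of all promoters with the same pattern was not counted, so the 4 are not read as a result about the receptors. The value given last is the 12-week difference minus the 25-week difference, in percentage points of the promoter window.

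For Rxrb, H3K4me3 in obesity was 77.8, 100 and 85.5% in C and 41.1, 63.8 and 28.7% in H, but 91 and 96.3% in CC_l and 100% in both HH libraries, a value of -49.6. The window of Rxrb is shared with H2-Ke6 and Slc39a7. For Nr4a1, an immediate-early receptor, H3K4me3 was 42.2, 46.2 and 40.7% in C and 13.4, 38.1 and 0% in H, but 54.8 and 68.8% in CC_l and 72.2 and 69.4% in HH, a value of -34.8. Both HH libraries and 1 CC_l library are among the H3K4me3 libraries whose labels disagree.

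For Esrrg, H3K27me3 after WL was 46.5, 42.3 and 39.8% in CC_s and 15.3, 4.19 and 29.8% in HC, but 38 and 26.4% in CCC and 49.7, 69 and 73% in HHC, a value of -58.1. For Nr6a1, the germ cell nuclear factor, H3K27ac after WL was 11.2 and 13.6% in CC_s and 6.51, 9.4 and 8.22% in HC, but 22.6 and 9.82% in CCC and 38, 36.2 and 23.4% in HHC, a value of -20.6, and the lower CCC value is that of replicate 3, the library with fewest marked promoters.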

How the results depend on the processing

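Counts of members depended on the processing more than the direction of single values. In the main setting the members separated numbered 2 (H3K4me3), 4 (H3K27me3), 1 (H3K27ac) and 4 (H3K4me1), and the tests of both contrasts made 5, 4, 12 and 1 calls, in which a member can count once for obesity and once for WL. Windows of 500 bp gave 1 separated member for H3K4me3 and 2 for H3K27ac, 2, 1, 6 and 0 test calls in the order of marks above, and a WL difference in members with H3K27me3 of 1.75 in place of 5.5. Equal numbers of peaks gave 1 (H3K4me3) and 4 (H3K27ac) separated members, 3 (H3K4me3), 5 (H3K27ac) and 2 (H3K4me1) test calls, and 7 in place of 4 distal H3K27ac regions. The stricter threshold gave 1 (H3K4me3) and 6 (H3K27ac) separated members and 2, 6 and 0 test calls for H3K4me3, H3K27ac and H3K4me1. An overlap of at least 200 bp left 2 separated members for H3K27me3. The treatment field gave 2 test calls for H3K4me3. Percentile ranks of signal gave 16, 7 and 7 test calls for H3K4me3, H3K27me3 and H3K4me1, and turned Nr2c2 H3K27ac in obesity to 1.49 percentile points above control (exact permutation test, unadjusted p = 0.8). Presence or absence of a peak gave 0, 2, 0 and 0 test calls. Allowing H3K4me3 at distal regions gave 19 H3K4me1 regions in place of 9 and 25 H3K27ac regions in place of 4. The cause of these shifts was not tested, beyond fewer peaks or smaller windows leaving fewer promoters to test.

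With single libraries left out, separation called 2 to 4, 4 to 9, 1 to 16 and 4 to 7 members in the order of marks above, the 16 arising without CCC replicate 1, which leaves CCC replicate 3 alone. The tests made 2 to 9, 2 to 5, 5 to 13 and 0 to 3 calls, with 9 and 2 for H3K4me3 without CC_l replicates 1 and 2, and 5 for H3K27ac without HH replicate 3. Distal regions numbered 9 to 15 for H3K4me1, the most without HHC replicate 2, and 4 to 9 for H3K27ac, the most without CCC replicate 3. The difference in members marked after WL ranged from -1.25 to 8.25 for H3K27ac, from 0.67 to 2.5 for H3K4me3, from 3.83 to 6.58 for H3K27me3 and from 0.33 to 3.17 for H3K4me1. In obesity it ranged from -3.17 to -1.67, -1.17 to 3.33, -6.33 to -4.33 and 0.25 to 2.58 in the order of marks above. A comparison left with 1 library in an arm still passed through the same exact permutation over both cohorts.

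With the replicate block, which kept only same-numbered libraries, the members separated numbered 3 (H3K4me3), 15 (H3K27me3), 2 (H3K27ac) and 6 (H3K4me1). No paired permutation test was possible because the same-numbered pairs are too few to reach a p of 0.05. Of all H3K4me3 calls in obesity 99.6% were lower by coverage and 55.8% by rank. Ranking takes out a change shared by a whole library but does not fix the split. By rank 69.0% of the H3K27me3 calls in obesity and 27.2% of the H3K27ac calls after WL were lower. Of the named genes' other values, 41 stayed on the same side of the threshold and 73 no longer passed it. With single libraries left out 360 such values stayed and 99 no longer passed, in fits that have fewer labellings by construction. Low peak numbers limit what can be seen, since a promoter below a library's threshold counts as unmarked.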
